A study of Mus musculus with 154 samples.

Results

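The 46 listed symbols are a curated set of genes for cell cycle progression and DNA replication, and 39 of them were found by Ensembl identifier among the 13289 genes of the liver count table. The 7 that were not found are Cdc6, Chek1, Foxm1, Plk1, Aurka, Aurkb and Bub1. The study's authors removed genes with low counts, and whether these 7 were among them was not tested. Liver RNA came from mice that were 5 weeks old, had been fasted overnight and are listed as male. They belonged to 24 strains, which were the inbred control strain B6 (C57BL/6J, n = 20), 8 single chromosome substitution strains (CSSs, 63 mice, 7 or 8 per strain) and 15 double CSSs (71 mice, 3 to 6 per strain). Each single CSS mouse was heterozygous for 1 whole chromosome from strain A/J on the B6 background, and each double CSS mouse for a pair of such chromosomes. The labels write the sire first. The substituted strains were (B6 X B6.A3)F1, (B6.A4 X B6)F1, (B6.A5 X B6)F1, (B6 X B6.A6)F1, (B6.A8 X B6)F1, (B6.A10 X B6)F1, (B6 X B6.A14)F1 and (B6 X B6.A17)F1, here called A3 to A17. Double CSSs are written with the chromosome of the dam first, so that A14:A8 is the cross (B6.A8 X B6.A14)F1. A substituted chromosome carries many A/J alleles at once, only dominant or semi-dominant effects can show in heterozygous mice, and each substituted chromosome came from the same parent in all of its mice.

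A cell that enters the cycle raises D- and E-type cyclins, which release the E2F transcription factors. E2F targets include the MCM helicase and its loaders, the enzymes that make deoxynucleotides, the sliding clamp PCNA and repair proteins such as BRCA1 and BRCA2. Genes for mitosis, among them the B-type cyclins, the spindle kinesins, the kinetochore proteins and the cytokinesis proteins, come on later, in G2 and M phase. The adult liver is largely quiescent, while the liver of a young mouse still grows and some of its hepatocytes and non-parenchymal cells divide. The members were grouped by these roles into D- and E-type cyclins and E2F (4 genes found), replication licensing and helicase (8), nucleotide supply and replication clamp (5), DNA repair and checkpoint (2), mitotic cyclins with CDK1 and their activators (5), chromosome, spindle and kinetochore (9) and cytokinesis (6). The last 3 groups, with 20 members, are called mitotic below.

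The members were expressed at low levels. Values are CPM, which are counts scaled to a common TMM-normalized library size, and total counts per mouse lay between 4638701 and 30465477. The mean over all mice lay between 0.732 CPM for Cdc20, an activator of the anaphase-promoting complex, and 31.9 CPM for Mcm10, a replication initiation factor. The median member had 1.98 CPM, against 11.7 CPM for the median gene of the table. In 75% or more of the mice, 25 members had 15 or more counts, and 14 members fell short of this. Per kilobase of exon, Pcna had the highest level (4.62 CPM per kb), followed by Mcm10 (4.15), Tk1, the salvage enzyme thymidine kinase (3.05), and Ccnd1, which encodes cyclin D1 (2.20). Kif23, a kinesin of the central spindle, had the lowest level, at 0.107 CPM per kb. All 20 mitotic members were under 0.7 CPM per kb. The highest strain mean exceeded the lowest by 1.24- to 4.23-fold, with a median of 1.95-fold over the 39 members. Ccnb1, cyclin B1, had the widest span, from 0.297 CPM in A3:A5 to 1.26 CPM in A8. In such bulk tissue, fewer cells of a type and less RNA per cell cannot be told apart.

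**Figure D1:**
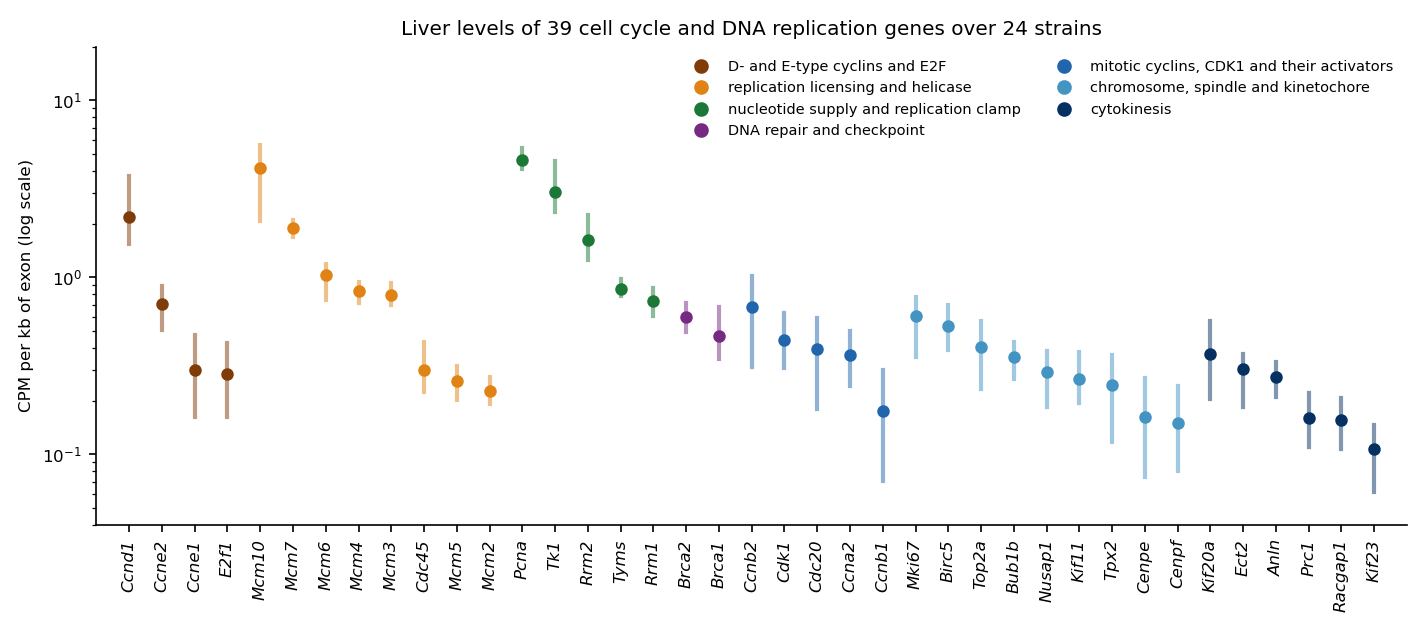
Mean level of each member in CPM per kilobase of exon on a log axis, with points for the mean over all mice, lines from the lowest to the highest of the 24 strain means, and colors for the role groups. Pcna, Mcm10 and Tk1 lie above 3 CPM per kb, and the mitotic members on the right lie under 0.7.

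RefSeq promoter windows of Brca2, Brca1, Rrm1 and Mcm10 were chosen as those of members described in several of the comparisons below, and the 250 bases before each start (GRCm38.p6, which is mm10) are shown because their strain differences are described next. They are chr5:150522371-150522620 on the plus strand for Brca2, chr11:101551956-101552205 on the minus strand for Brca1, chr7:102441445-102441694 on the plus strand for Rrm1 and chr2:5012792-5013041 on the minus strand for Mcm10. Capitals mark matches to an E2F motif or to CCAAT.
Brca2: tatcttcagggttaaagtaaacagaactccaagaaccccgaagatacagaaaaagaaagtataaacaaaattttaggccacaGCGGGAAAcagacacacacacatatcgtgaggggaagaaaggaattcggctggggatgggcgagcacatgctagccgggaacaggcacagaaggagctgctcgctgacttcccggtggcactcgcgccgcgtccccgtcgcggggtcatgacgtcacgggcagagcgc
Brca1: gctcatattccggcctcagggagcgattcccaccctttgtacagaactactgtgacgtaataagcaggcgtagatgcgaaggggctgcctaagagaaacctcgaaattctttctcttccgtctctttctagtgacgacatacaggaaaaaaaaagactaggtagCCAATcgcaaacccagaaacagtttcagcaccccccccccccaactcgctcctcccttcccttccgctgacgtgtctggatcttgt
Rrm1: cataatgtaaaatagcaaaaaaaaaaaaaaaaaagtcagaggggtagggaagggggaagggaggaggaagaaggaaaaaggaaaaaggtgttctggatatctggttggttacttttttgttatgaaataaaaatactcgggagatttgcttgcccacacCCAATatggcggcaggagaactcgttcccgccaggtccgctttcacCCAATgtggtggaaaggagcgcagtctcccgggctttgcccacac
Mcm10: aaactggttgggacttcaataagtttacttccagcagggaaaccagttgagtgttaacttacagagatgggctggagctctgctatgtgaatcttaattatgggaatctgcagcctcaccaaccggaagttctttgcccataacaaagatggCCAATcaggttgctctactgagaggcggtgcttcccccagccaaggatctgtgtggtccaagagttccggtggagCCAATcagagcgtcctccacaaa

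The E2F letters searched, on both strands, were TTTCCCGC, TTTCGCGC, TTTGCCGC and TTTGGCGC, and the CHR letters, known from G2 and M phase genes, were TTTGAA and TTTAAA. Windows were found for 33 of the 39 members. The E2F letters were in 5 of these windows (15.2%), against 1.91% of 27025 windows in the whole RefSeq table and 3.41% of the 9773 windows of genes measured here. The CHR letters were in 15 (45.5%, against 25.5% of all windows and 17.9% of those of measured genes), of which 10 were among the 17 mitotic windows (58.8%) and 5 among the other 16 (31.2%). CCAAT was in 14 of the 17 mitotic windows (82.4%), in 11 of the other 16 (68.8%) in 34.5% of all windows and in 36.7% of those of measured genes. Brca2 had 1 E2F match and none of the others, Brca1 had 1 CCAAT, and Rrm1 and Mcm10 had 2 CCAAT each. The window of Mcm6, which is not shown, had 3 E2F matches and 2 CCAAT. A match of letters is a description of the window and not a binding site.

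Each gene was fitted with edgeR's quasi-likelihood model with 8 main effects, 15 interactions and 5 surrogate variables, with Benjamini-Hochberg adjustment over the whole table within each effect, separately for genes on and off the substituted chromosomes (edgeR-adjusted p, threshold 0.05). A main effect is the log2 fold change of a substitution from B6. Of 312 pairs of a member and a substitution, 19 passed (6.09%, against 11.1% of such pairs over all genes), 6 higher and 13 lower than in B6, in 12 members. No member lies on chromosome 14 or 17, and although 11 members lie on some substituted chromosome, none of the 19 changes was in a gene on the chromosome substituted. By substitution, 10 members passed in A14 (background 22.5% of all genes), 4 in A8 (29.6%), 2 in A4 (13.5%), 2 in A6 (8.09%) and 1 in A10 (6.64%). None passed in A3 (3.70%), A5 (0.768%) or A17 (3.67%) with edgeR, where 5, 5 and 2 members had an unadjusted p under 0.05. DESeq2's Wald test called 21 pairs in place of 19, among them all 19.

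**Figure D2:**
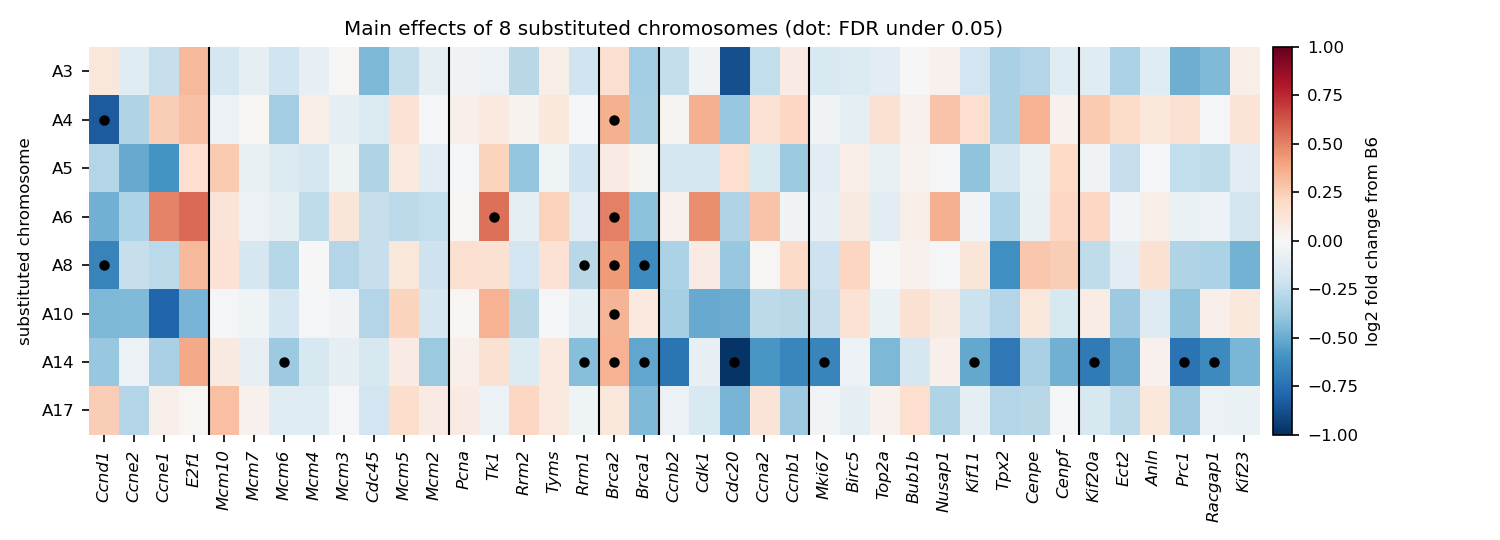
Log2 fold changes from B6 (color) of the 39 members, in columns grouped by role, for the 8 substituted chromosomes, in rows, with dots where the edgeR-adjusted p was under 0.05. The A14 row has 10 dots, 6 of them in the mitotic groups on the right, and the Brca2 column has 5.

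Substitution of chromosome 14 had the most member changes. There, 9 members fell (background of falls 12.6%) and 1 rose, and 25.6% of the members passed, against 22.5% of all genes. The median log2 fold change over the members was -0.32, against -0.0054 over all genes, and 30 of 39 were negative. The mitotic groups lay lowest, with medians of -0.66 for the mitotic cyclins, -0.57 for the cytokinesis genes and -0.45 for the spindle and kinetochore genes, while the median of the licensing genes was -0.13. Cdc20 had 0.116, 0.761 and 2.54 CPM as its lowest, median and highest value in B6 and 0.139, 0.440 and 1.25 CPM in A14. It fell by 0.98 on the log2 scale (SE 0.38, edgeR-adjusted p = 0.0487). Prc1, which bundles the microtubules of the central spindle, had 0.171, 1.40 and 3.76 CPM in B6 and 0.357, 1.07 and 1.80 CPM in A14. Its log2 fold change was -0.74 (SE 0.26, edgeR-adjusted p = 0.0292). Kif20a, a mitotic kinesin of cytokinesis, lay between 0.179 and 3.16 CPM in B6 and between 0.554 and 1.85 CPM in A14, with a log2 fold change of -0.71 (SE 0.25, edgeR-adjusted p = 0.0294). For each of these 3 genes the A14 mice lay inside the B6 range. All 3 overlap another gene on the other strand, and the strand setting of the counting was not given in the sources used here. Prc1 overlaps Rccd1 (1.6 CPM) over 21810 bases, Kif20a overlaps Cdc23 (13.3 CPM) over 2327 and Cdc20 overlaps Elovl1 (15.4 CPM) over 53. Within strains the Pearson correlations of these pairs were -0.09, 0.097 and 0.24.

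Mki67, the gene of the proliferation antigen Ki-67, had 2.40, 6.53 and 11.3 CPM as its lowest, median and highest value in B6 and 3.04, 5.43 and 6.83 CPM in A14. All A14 mice lay inside the B6 range, and none came near its upper end. The log2 fold change was -0.66 (SE 0.20, edgeR-adjusted p = 0.00946). Top2a, DNA topoisomerase 2 alpha, had a log2 fold change of -0.45 (SE 0.19) that did not pass (edgeR-adjusted p = 0.0696), with a median of 3.64 CPM in B6 and 2.92 CPM in A14. Cdk1, the mitotic kinase (-0.083, SE 0.19), and Anln, an actin-binding protein of the cleavage furrow (0.042, SE 0.16), did not pass either. Kif11, Racgap1, Mcm6, Brca1 and Rrm1 were the other members that fell in A14, by 0.36 to 0.64 on the log2 scale. Brca2 rose.

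The A14 changes of the members depended on the covariates of the model. With 0 surrogate variables 3 of the 39 members passed in A14 and the members' median was -0.21. With 10 surrogate variables 1 member passed and the median was 9.0e-05. With body weight as a covariate 2 passed and the median was -0.24. Mki67 had a log2 fold change of -0.39 (edgeR-adjusted p = 0.18) with 0 surrogate variables. With 10 it had 9.0e-05, which is also the members' median given above, so that no fall was left. Without the A14:A4 mouse whose Y-linked counts go against its listed sex, 8 members passed in A14. The shares of all genes that passed under these alternatives are not given. Hepatocyte markers moved in the same strain, since 6 of 10 passed as lower in A14 and their summed level was 66830 to 139800 CPM, against 114100 to 172500 CPM in B6. Of 7 erythroid markers, 1 passed as lower, with a list median of -0.52 and summed levels of 212.4 to 323.5 CPM against 114.1 to 743.4 CPM in B6. Their part in the result was not tested.

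Rrm1, the large subunit of ribonucleotide reductase, which makes deoxynucleotides, fell in A14 and A8. Its lowest, median and highest value was 6.91, 8.63 and 12.3 CPM in B6, 5.40, 6.58 and 9.02 CPM in A14, and 4.69, 6.45 and 9.02 CPM in A8. The A14 and A8 mice lay mostly under the B6 median, although their ranges overlapped with that of B6. The log2 fold change was -0.43 in A14 (SE 0.088, edgeR-adjusted p = 0.000105), and it stayed between -0.44 and -0.38 and past the threshold under all 8 alternatives. In A8 it was -0.27 (SE 0.094, edgeR-adjusted p = 0.018), and 2 of 8 alternatives ended that call. Beside this and the other A8 changes below, 8 of 10 hepatocyte markers passed as lower in A8 and none as higher, with a list median of -0.32 and summed levels of 62160 to 124100 CPM. Their part in the A8 changes was not tested.

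Ccnd1, which couples growth signals to the start of the cycle, fell in A4 and A8. In B6 it had 6.31, 10.7 and 31.4 CPM as its lowest, median and highest value, in A4 4.83, 7.14 and 11.5 CPM, and in A8 6.16, 8.75 and 13.03 CPM. Single B6 mice reached far higher levels than the A4 or A8 mice, while the low ends overlapped. The log2 fold change was -0.83 in A4 (SE 0.19, edgeR-adjusted p = 0.00124) and -0.67 in A8 (SE 0.20, edgeR-adjusted p = 0.00561). Without the B6 mouse that had the highest Ccnd1 level, a choice made after seeing the data, it was -0.65 in A4 (edgeR-adjusted p = 0.00844) and -0.49 in A8 (edgeR-adjusted p = 0.0348). The call in A8 held under all 8 alternatives and that in A4 under 7. Ccnd1 overlaps the gene LTO1 on the other strand.

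Brca1 and Brca2, both required for repair by homologous recombination, went in opposite directions. Brca1 had 2.51, 4.51 and 6.75 CPM as its lowest, median and highest value in B6, 2.76, 3.29 and 3.94 CPM in A8 and 2.08, 3.43 and 4.68 CPM in A14. All A8 mice lay below the B6 median. The log2 fold change was -0.63 in A8 (SE 0.17, edgeR-adjusted p = 0.00276) and -0.52 in A14 (SE 0.16, edgeR-adjusted p = 0.0106), and 2 of 8 alternatives ended each call. Brca2 was higher in A4, A6, A8, A10 and A14, by 0.34 to 0.51 on the log2 scale. Its median was 6.997 CPM in B6 and between 8.64 CPM in A14 and 10.1 CPM in A6. In A3, A5 and A17 the values were 0.16, 0.08 and 0.11 and did not pass, and these differences between substitutions were not tested. The rise in A6 passed under all 8 alternatives, and the other 4 were each lost under 1 or 2 of them. All 8 contrasts share the B6 mice.

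Tk1 was the other member that rose, in A6. B6 mice had 6.64, 12.7 and 28.9 CPM as their lowest, median and highest value and A6 mice 16.4, 23.8 and 30.3 CPM, so that every A6 mouse lay above the B6 median. The log2 fold change was 0.55 (SE 0.14, edgeR-adjusted p = 0.00908), and it passed under all 8 alternatives. Tk1 overlaps Afmid on the other strand by 169 bases, and within strains both genes had a Pearson correlation of 0.72 over all mice. The strand setting of the counting was not given in the sources used here. In all, 9 members overlap another gene of the table, each on the opposite strand.

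**Figure D3:**
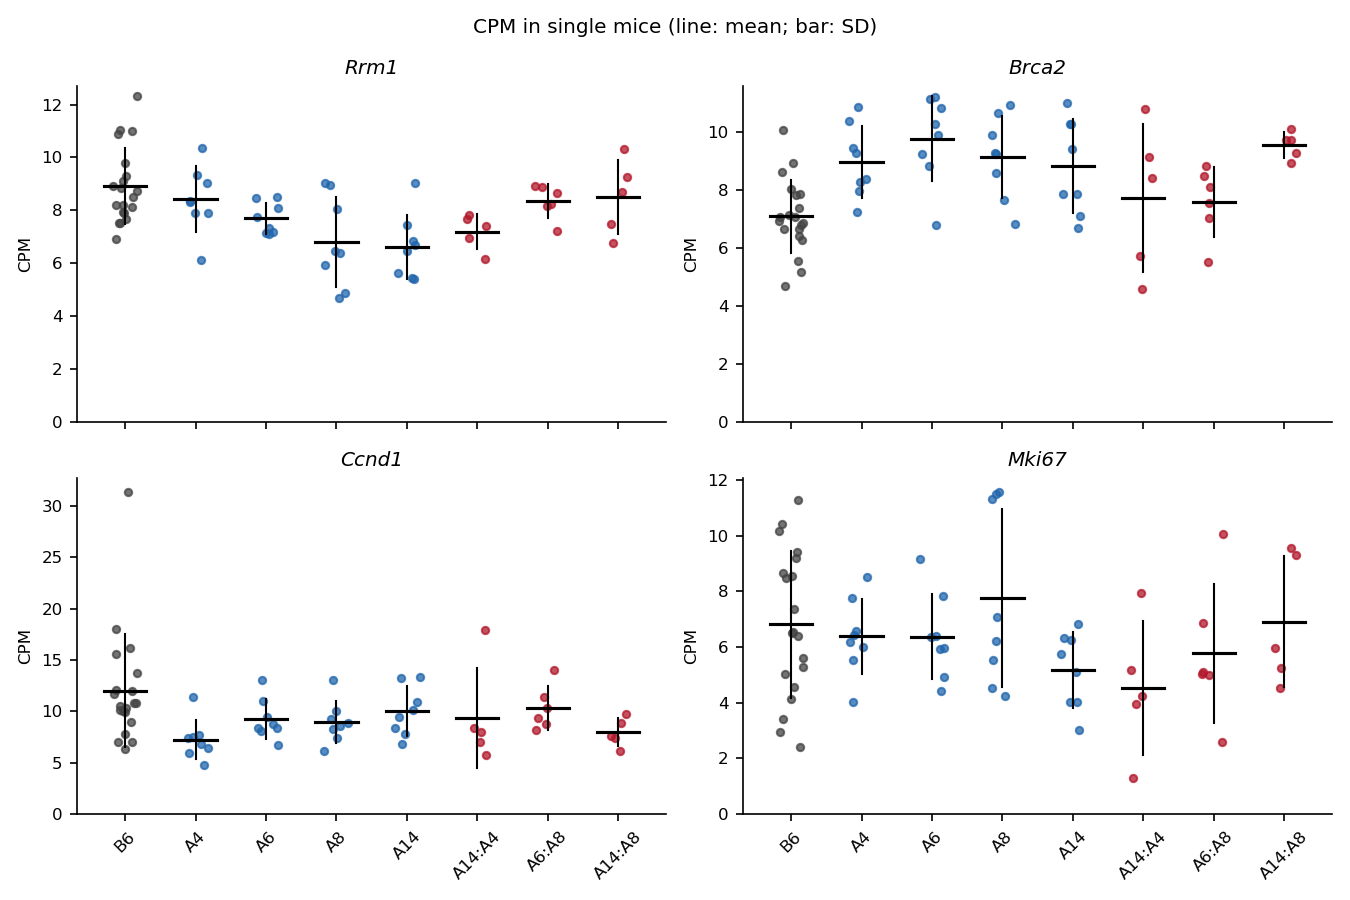
CPM of Rrm1, Brca2, Ccnd1 and Mki67 in single mice (points) of B6 (grey), single CSSs (blue) and double CSSs (red), with the mean (horizontal line) and the SD (vertical bar). Rrm1 is lower in A8 and A14 than in B6 but not in A14:A8, Brca2 is higher in the 4 single CSSs shown, and Mki67 overlaps between all strains.

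The interaction term gives the log2 distance between a double CSS and what its 2 main effects add up to, and it asks whether a substitution acts differently on the background of another. Of 585 pairs of a member and a cross, 16 passed (2.74%, against 5.96% over all genes), 11 positive and 5 negative, in 12 members. In A14:A8, 7 members passed (17.9% of the members, against 32.4% of all genes), in A6:A8 5 (background 24.8%), in A14:A4 2 (4.63%), in A14:A5 1 (4.04%) and in A3:A8 1 (7.56%). In the other 10 crosses, where at most 8.68% of all genes passed, no member passed with edgeR, and 33 of the 390 member-cross pairs there had an unadjusted p under 0.05. With DESeq2's Wald test 19 pairs passed in all, of which 15 were among the 16. With neither a main effect nor an interaction called, 21 members remained.

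In A14:A8, the interaction was positive for 6 of the 7 called members. In this fit with 5 surrogate variables, the levels of these 6 members in the double CSS lay above what both single substitutions add up to. Rrm1 had 6.78, 7.48, 8.71, 9.27 and 10.3 CPM in the 5 mice, which is within the B6 range but for 1 mouse. Its interaction was 0.62 (SE 0.15, edgeR-adjusted p = 0.000465), it passed under all 8 alternatives and without each mouse in turn, and A14:A8 itself had a log2 fold change of -0.079 from B6 (SE 0.10). Kif20a had 1.10, 1.59, 1.64, 2.56 and 5.37 CPM, with 1 mouse above all B6 mice. Its interaction was 1.29 (SE 0.42, edgeR-adjusted p = 0.0106). Without replicate 1, which had the highest level, it was 1.004 and did not pass (edgeR-adjusted p = 0.0536), and it was 0.028 with 10 surrogate variables.

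Kif23 had 0.650, 0.836, 1.01, 1.24 and 1.59 CPM in the A14:A8 mice, against a B6 range of 0.307 to 1.42 CPM. The Kif23 interaction was 1.06 (SE 0.40, edgeR-adjusted p = 0.0336), which 0 surrogate variables brought to 0.24 and the loss of replicate 2 to 0.82 (edgeR-adjusted p = 0.138). Brca1 had 2.68, 3.18, 3.35, 4.08 and 4.89 CPM, all inside the B6 range. Its interaction was 0.80 (SE 0.27, edgeR-adjusted p = 0.0168), and without replicate 5 it did not pass (edgeR-adjusted p = 0.0719). Mcm3 and Mcm6, helicase subunits, had positive interactions of 0.49 and 0.62, and Pcna a negative interaction of -0.37. These calls were lost without replicate 2, and that of Mcm3 also without replicate 4. With 0 surrogate variables 3 of the 39 members passed in A14:A8, with 10 only Rrm1, and with body weight as a covariate 3. The shares of all genes that passed under these settings are not given. The members' median interaction was 0.349 as reported, with 26 positive and 13 negative. It was 0.108 with 0 surrogate variables, -0.196 with 10 (13 positive and 26 negative) and 0.179 with body weight as a covariate. Hepatocyte markers moved with the cross, with 8 of 10 positive interactions called. Their summed level was 112900 to 139100 CPM in A14:A8, against 62160 to 124100 CPM in A8 and 66830 to 139800 CPM in A14. Of 7 erythroid markers, 2 had a positive interaction that passed and none a negative one that passed, with a list median of 0.89 and summed levels of 252.3 to 504.2 CPM in A14:A8. Of 10 markers each, 2 positive and 4 negative interactions passed for stellate cells, 0 and 3 for endothelial cells and 1 and 2 for Kupffer cells. Their part in these interactions was not tested.

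In A6:A8, Brca2 had the interaction with the smallest p. Its lowest, median and highest value was 5.51, 7.81 and 8.80 CPM in the 6 mice, against 6.79, 10.1 and 11.2 CPM in A6 and 6.82, 9.25 and 10.9 CPM in A8. The double CSS thus lay nearer to B6 than either single CSS. The interaction was -0.90 (SE 0.17, edgeR-adjusted p = 2.95e-05) and passed under all 8 alternatives, and the double CSS had a log2 fold change of 0.03 from B6 (SE 0.12). Tpx2, which nucleates spindle microtubules, had 0.742, 1.22 and 2.85 CPM as lowest, median and highest value, and its interaction of 1.16 (SE 0.45, edgeR-adjusted p = 0.0471) was lost under 4 of 7 alternatives. In B6 Tpx2 had 0.332, 1.13 and 2.64 CPM, so that the ranges overlapped. Ccnd1 had 8.21, 9.84 and 13.99 CPM and an interaction of 0.78 (SE 0.30, edgeR-adjusted p = 0.0388). Rrm1 (0.37) and Tyms, thymidylate synthase (-0.41), were the other members called in A6:A8, where 7 of 10 hepatocyte markers had positive interactions that passed.

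The remaining interactions concerned 4 members in 3 crosses. Mcm10 had 6.12, 10.5, 18.2, 18.9 and 26.7 CPM in the 5 mice of A14:A4, against a B6 range of 16.9 to 49.8 CPM, so that 2 mice lay below all B6 mice. Neither single substitution changed Mcm10 past the threshold (0.089 in A14 and -0.059 in A4). The interaction was -0.91 (SE 0.27, edgeR-adjusted p = 0.031). The lowest value belonged to replicate 3, the mouse whose Y-linked counts go against its listed sex, and without it in a full refit the interaction was -0.78 (edgeR-adjusted p = 0.0991). Leaving out replicate 5 ended the call too. Brca2 had 4.57, 5.71, 8.41, 9.13 and 10.8 CPM in the same cross, and its interaction was -0.68 (SE 0.19, edgeR-adjusted p = 0.0204). The call was lost without replicate 4 or replicate 5, where the edgeR-adjusted p reached 0.0943. Brca1 had 4.81, 5.25, 5.40, 6.31 and 7.08 CPM in A14:A5, with an interaction of 0.87 (SE 0.27, edgeR-adjusted p = 0.0406) that was lost without any 1 of replicates 1 to 4. Ccnd1 had 14.8, 15.2 and 22.5 CPM in the 3 mice of A3:A8, all above the B6 median. Its interaction there was 0.9987 (SE 0.32, edgeR-adjusted p = 0.0378) and did not pass without replicate 2 or replicate 3, where the edgeR-adjusted p reached 0.205. Without the B6 mouse with the highest Ccnd1 level, the interactions of Ccnd1 were 0.83 in A3:A8 (edgeR-adjusted p = 0.0672) and 0.67 in A6:A8 (edgeR-adjusted p = 0.0576), and neither passed.

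Compared directly with B6, few members differed in the double CSSs. In A14:A4, 4 members were lower (background 13.9%), among them Mcm10 (-0.88, SE 0.19, edgeR-adjusted p = 0.000559), Rrm1 (-0.38), Top2a (-0.68) and Mcm6 (-0.49). These values include the mouse whose Y-linked counts go against its listed sex, which had the lowest Mcm10 level. The contrasts of double CSSs with B6 are not given under the alternatives. In A14:A8, Ccnd1 was lower (-0.70) and Brca2 higher (0.41), with a background of 4.82%. Ccne2, cyclin E2 (-0.71), and Mcm6 (-0.58) were lower in A6:A4 (background 4.82%). In the other 12 double CSSs, where at most 13.5% of all genes passed, no member passed with edgeR, and 51 of 468 pairs had an unadjusted p under 0.05.

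A joint test of all 23 strain coefficients asks whether a gene differs between any strains. It called 13 of the 39 members (33.3%, against 51.4% of all genes). Rrm1 (edgeR-adjusted p = 9.27e-05), Ccnd1 (0.00036) and Brca1 (0.000478) had the smallest values. Of the 20 mitotic members, Cdk1, Mki67, Top2a, Kif11 and Kif20a passed. The joint test of the 15 interactions called 3 members (7.69%, against 27.4% of all genes), which were Rrm1 (edgeR-adjusted p = 0.000587), Brca2 (0.00455) and Ccnd1 (0.0294). With 10 surrogate variables 7 members passed the joint strain test. No member then passed the joint interaction test with edgeR, where 4 members had an unadjusted p under 0.05. The shares of all genes that passed under this setting are not given.

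The members of the mitotic groups varied together among mice of the same strain. Deviations of log2 CPM from the strain mean were correlated over all mice, where all genes of a mouse share 1 library. All 190 pairs within the 20 mitotic members had a positive Pearson correlation, with a median of 0.51 and a range of 0.12 to 0.85. The 171 pairs among the other 19 members had a median of 0.02, from -0.38 to 0.32, and the 380 pairs between both sets a median of 0.015. Mki67 and Top2a were the most alike (Pearson r = 0.851, Spearman rho = 0.848, r = 0.846 without the 2 mice farthest from the median of Top2a). Permutation of mice within strains gave the smallest p that 100000 permutations can give (permutation p = 1e-05, adjusted p = 5e-05 over 15 relations). Next to Top2a, the genes most like Mki67 were Cenpf, a kinetochore protein (0.788), Ccna2, cyclin A2 (0.787), and Racgap1, a regulator of the central spindle (0.733). Birc5, the survivin gene, had the lowest mean correlation with the other mitotic members (0.244). Mcm6 (0.254) and Rrm1 (0.183) had the highest among the members outside the mitotic groups. The 28 pairs in the licensing group, which holds the MCM genes, had a median of 0.048.

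**Figure D4:**
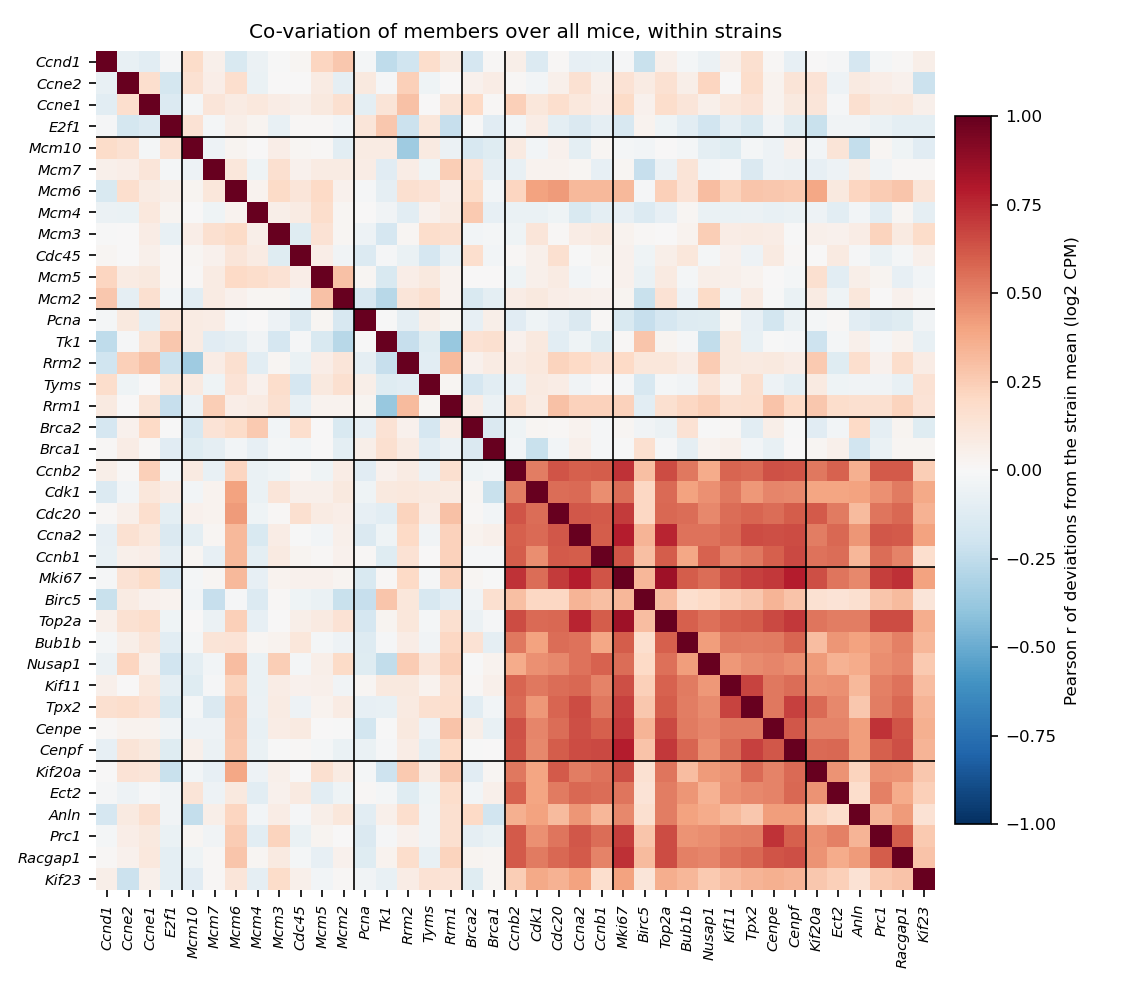
Pearson correlations (color) between the 39 members, ordered by role group, of deviations of log2 CPM from the strain mean over all mice. The block at the lower right, with the 20 mitotic members, is positive throughout, and outside it Mcm6 has the highest values with these members.

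The sum of the 20 mitotic members lay between 15.6 and 59.6 CPM in B6, where mice are genetically alike, a 3.82-fold span. Over all mice the span was 14.7 to 68.9 CPM. Medians were 36.8 CPM in B6, 33.1 CPM in A14, 44.9 CPM in A8 and 31.3 CPM in A14:A8, and the ranges of these strains overlapped. The sum was not related to the total count of a mouse (Pearson r = -0.0166, permutation p = 0.852, Spearman rho = -0.0154). It rose within strains with the summed Kupffer cell and macrophage markers (Pearson r = 0.413, Spearman rho = 0.404, adjusted permutation p = 5e-05 for each, r = 0.392 without the 2 farthest mice). The erythroid markers had the next highest relation among the marker lists (r = 0.335, rho = 0.329, adjusted permutation p = 0.00027 and 0.000487), and r was 0.36 without the 2 farthest mice. Endothelial (r = 0.281, rho = 0.27), stellate cell (r = 0.266, rho = 0.234) and lymphocyte markers (r = 0.256, rho = 0.257) were related to the sum as well, with adjusted permutation p-values for r of 0.00315, 0.0039 and 0.00454, and r without the 2 farthest mice was 0.283, 0.277 and 0.236. For hepatocyte markers r was 0.0828 (adjusted permutation p = 0.438) and did not pass, while rho was 0.198 and did (adjusted permutation p = 0.0336). Of the 5 surrogate variables in the model, the second had r = 0.404 and rho = 0.442 with the sum (adjusted permutation p = 5e-05 for each). The fifth had r = -0.337 and rho = -0.297 (adjusted permutation p = 0.00027 and 0.00177). The surrogate variables were estimated from the same counts, which include these 20 genes. Their relations with sums of other genes are not given, so these values show no link particular to the mitotic members.

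The slope on body weight passed for 4 of the 20 mitotic members, which were Ccna2, Mki67, Kif11 and Racgap1. Weight in g was added to the model with all strain terms, so that a slope compares heavier and lighter mice of the same strain. The surrogate variables had been estimated without weight, so they can hold part of the variation that goes with it. Of the 39 members, 7 had a slope that passed (17.9%, against 4.37% of all genes), 6 negative (background 2.11%) and 1 positive. With 5 surrogate variables all 20 mitotic members had a negative slope, and 31 of the 39 members did. The mitotic members varied together within strains (median pairwise r 0.51), so their signs are not separate observations. The median slope was -0.051 log2 units per g over the members and 0.00082 over all genes. Mki67 fell by 0.12 on the log2 scale per g (SE 0.035, edgeR-adjusted p = 0.026). Separate linear fits of log2 CPM on weight, without surrogate variables, were made in each of the 20 strains with 5 or more mice. In these the Mki67 slope was negative in 15 strains. The counts of strains for other members come from the same fits, and such counts over all genes are not given. Ccna2 (-0.17 log2 units per g), Racgap1 (-0.15) and Kif11 (-0.099) passed as well. Mcm6 had -0.078 log2 units per g (SE 0.022, edgeR-adjusted p = 0.0232). Brca1 had -0.099 log2 units per g (SE 0.028, edgeR-adjusted p = 0.0234), with a negative slope in 14 of 20 strains. Top2a (-0.096, SE 0.033) did not pass (edgeR-adjusted p = 0.0763), although its slope was negative in 18 of 20 strains.

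Mcm10 was the 1 member that rose with body weight. Its slope was 0.10 log2 units per g (SE 0.026, edgeR-adjusted p = 0.00896), and it passed under each of the 4 alternatives. In the fits within single strains the Mcm10 slope was positive in 14 of 20. For the negative slopes the number of surrogate variables mattered. How much of the variation with weight each number of them took up was not tested. With 0 surrogate variables 17 members passed, 16 of them negative, and with 10 only Mcm10 and Brca1 passed. Mki67 then had a slope of -0.013. With 10, the slopes of Ccnb1 (0.043), Kif20a (0.026), Birc5 (0.023) and Ect2 (0.0070) were positive, and those of the other mitotic members stayed negative. The shares of all genes that passed under these settings are not given. Erythroid markers moved in the same direction, with 3 of 7 passing as lower in heavier mice and a list median of -0.15 log2 units per g. Of 10 hepatocyte markers, 9 had a negative slope and 2 passed, Alb (-0.058 log2 units per g) and Hnf4a (-0.044). Their part in the slopes was not tested.

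**Figure D5:**
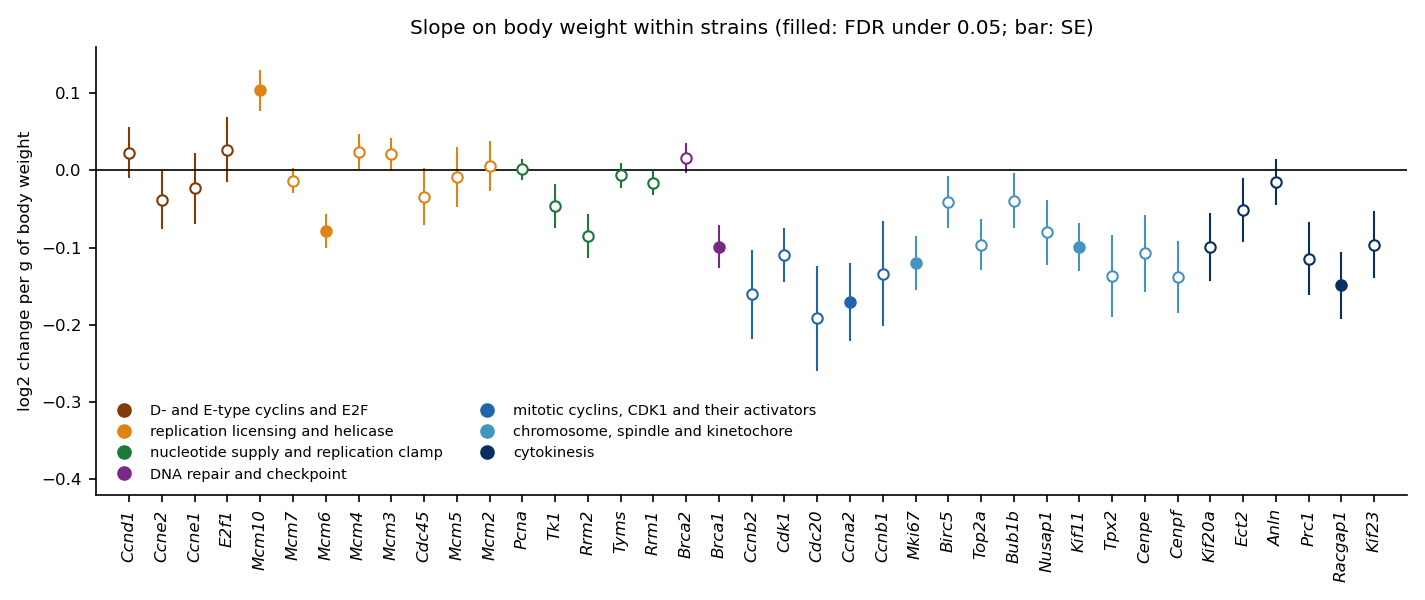
Slope of each member on body weight within strains, in log2 units per g, with bars for the standard error, filled points where the edgeR-adjusted p was under 0.05, and colors for the role groups. All 20 mitotic members on the right lie below 0, and Mcm10 lies highest at 0.10.

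A further list held 101 measured cell cycle genes that are no members. Of these, 9 rose and 5 fell in A14 (22.5% of all genes passed there), with a median log2 fold change of -0.0043, and the largest changes were those of Rfc3, a subunit of the clamp loader (0.54), and Kif18a, a mitotic kinesin (0.52). In A8, where 29.6% of all genes passed, 14 rose and 5 fell, led by Esco2, a cohesin acetyltransferase (1.05), and Rpa3, a subunit of the single-strand binding protein RPA (0.75). Rpa3, which lies on chromosome 6, also led the 9 genes that rose in A6 (0.69), where 1 fell and 8.09% of all genes passed. In A14:A8, where 32.4% of all genes passed, 8 positive and 11 negative interactions passed, with Ube2c, a ubiquitin-conjugating enzyme of mitotic exit (1.11), and Cdc25b, a CDK phosphatase (1.09), as the largest. In A6:A8, where 24.8% of all genes passed, 4 positive and 14 negative ones passed, led by Esco2 (-1.33). On body weight, where 4.37% of all genes passed, 2 rose and 4 fell, among them Ckap2 (-0.22 log2 units per g), which encodes a spindle protein.

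The replication-dependent histone genes have transcripts that normally lack a poly(A) tail. Of 16 measured, 8 passed as higher in A14 and none as lower, against 22.5% of all genes called in either direction. In A8, 9 passed as higher and none as lower (background 29.6%). In A14:A8, 8 had a negative interaction that passed and none a positive one that passed (background 32.4%). On body weight 1 of 16 rose and none fell (background 4.37%). Of the marker lists for other liver cells, to be read against the same 22.5% in A14, Kupffer cell markers passed higher in A14 for 2 of 10 genes and lower for 1, and endothelial markers for 3 and 1. The summed Kupffer markers lay between 403.4 and 630.3 CPM in A14 and between 373.9 and 627.3 CPM in B6. Stellate cell markers passed higher for 3 of 10 and lower for none, and no marker of cholangiocytes (7 genes), lymphocytes (4) or neutrophils and myeloid progenitors (3) passed in A14. The labelled tissue was checked by the 10 hepatocyte markers, which summed to at least 62160 CPM in every mouse.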

How the data were processed

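Stranded total RNA libraries were made from the livers of all mice and sequenced as single-end reads. Per the study's methods, the authors aligned reads to mm10 with TopHat2 and unmapped reads to an individualized A/J genome, removed duplicates, and counted reads per GENCODE gene with HTSeq-count. They removed 3 outlying mice. The strand setting of the counting was not given in the sources used here. The deposited values are raw counts. The flow cell of each library was not given in the sources used here, and 1 mouse had Y-linked counts that go against its listed sex.

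From these counts, edgeR 4.0.16 (R 4.3.3) was used for TMM normalization and the quasi-likelihood test, with 5 surrogate variables from sva 3.50.0. The Benjamini-Hochberg adjustment treated each effect on its own and took genes on and off the substituted chromosomes apart, with all 13289 genes tested. Of these, 13242 were placed by GENCODE vM21, and the other 47 were treated as off them. Total counts per mouse had a median of 16116424, and the low counts of the mitotic members limit their precision. Groups came from the labels. Mice of a strain came from several breeding cages, which the labels do not tell apart, and p-values measure the spread between these mice. Body weights came from the study's supplementary data. The alternatives were 0 and 10 surrogate variables, DESeq2 1.42.0 size factors, DESeq2's Wald test, a filter of 15 counts in 75% of the mice, adjustment over all genes of an effect, body weight as a covariate, leaving out the mouse named above, and the fit without each mouse in turn of the double CSSs with 5 or fewer mice, which leaves out A6:A8. For Ccnd1, the fit without the B6 mouse with its highest level was added after seeing the data. That fit and the fits without each mouse in turn kept the surrogate variables and dispersions of the full fit. The scripts were tested on simulated counts.

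The members and all gene lists (further cell cycle genes, histone genes and markers of 8 liver cell types) were chosen with earlier results of these data known. Named with values are Mki67, Top2a, Brca2 and Ccnd1, the member with the highest mean CPM in each role group, up to 3 called members with the largest change in each effect, and the 3 with the lowest p in the joint tests and for body weight. Promoters are shown for the 4 members that this rule names in most effects and that have a window. Other members are given by counts and ranges or in passing. Of the further cell cycle genes, up to 2 called genes with the largest change are named in each effect described, and 1 of these is not reported here.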

Additional observations from a re-analysis of the deposited data

Results flagged for a closer look

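Pcna in A14:A8 had 1 mouse at 7.05 CPM, while the other 4 lay between 10.01 and 11.04 CPM. On the log2 CPM scale, its gap to the nearest mouse was 0.782 of the group's range. It was the only outlying value in 34 groups of mice checked, where chance flags about 1 in 20 groups. This mouse is replicate 2, without which the Pcna interaction did not pass (-0.27, edgeR-adjusted p = 0.115).

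The effect of a substitution differed between backgrounds, by the interaction term of edgeR, for 16 pairs of a member and a cross. This was 2.74% of the member pairs, against 5.96% of such pairs over all genes. Only Rrm1 in A14:A8 and Brca2 in A6:A8 passed under all 8 alternatives. Among the calls in crosses with 5 or fewer mice, only Rrm1 in A14:A8 passed without each mouse in turn. In A14:A8 the log2 interactions were 0.49 for Mcm3, 0.62 for Mcm6, 0.62 for Rrm1, -0.37 for Pcna, 0.80 for Brca1, 1.29 for Kif20a and 1.06 for Kif23. In A6:A8 they were 0.78 for Ccnd1, 0.37 for Rrm1, -0.41 for Tyms, -0.90 for Brca2 and 1.16 for Tpx2. In A14:A4 they were -0.91 for Mcm10 and -0.68 for Brca2, in A14:A5 0.87 for Brca1 and in A3:A8 0.9987 for Ccnd1.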

How the results depend on the processing

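Of the 35 pairs of a member and an effect that passed, 6 passed under all 8 alternatives, namely Rrm1 in A14 and A14:A8, Brca2 in A6 and A6:A8, Ccnd1 in A8 and Tk1 in A6. A further 5 pairs belonged to genes that the filter on low counts removed, which limits what could be tested for them. The number of surrogate variables changed the results most. With 10 surrogate variables the main effects gave 7 calls in place of 19 and the interactions 3 in place of 16. Under this setting the joint strain test gave 7 in place of 13, the joint interaction test 0 in place of 3 and body weight 2 in place of 7. In A14, Mki67 then had no fall left (8.978e-05), and the sign of Racgap1 turned (0.07952). With 0 surrogate variables body weight gave 17 calls, 16 of them negative, and the main effects 20 calls, 12 higher and 8 lower in place of 6 and 13, of which 12 were shared. With body weight as a covariate the main effects gave 9 calls and the interactions 10. The cause was not tested, and the shares of all genes that passed under these alternatives are not given. The 65 fits without 1 mouse of a double CSS with 5 or fewer mice gave 12 to 17 interaction calls. The 6 mice of A6:A8 were not left out in this way, so its 5 calls have no such check. No paired analysis was possible because the labels carry no replicate numbers.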
